A study of Homo sapiens with 18 samples.

Results

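The genes described are 32 enzymes and carriers of the tricarboxylic acid (TCA) cycle, of glutamine and glutamate metabolism and of the handling of 2-oxoglutarate. They were chosen by function as a list of gene symbols, with earlier results of these data known. Of the 32, 29 had a probe set annotated to that 1 symbol among the 19775 genes with such a probe set, and 26 of those 29 were bright enough to be among the 12541 genes tested. FH, GLS2 and GPT2 had no such probe set in the annotation used and were not analysed here. The series measured total RNA of 9 isogenic clones of HCT116, an established human colorectal carcinoma cell line, on one-colour Affymetrix arrays with 2 arrays per clone, 18 in all, after 6 days of growth without treatment. Clones 2C11 and 2H1 carried IDH1 R132H, 3A4 carried IDH1 R132C, 8G12 and 17H5 carried IDH2 R140Q, and 47C2 and 45G3 carried IDH2 R172K, each heterozygous over a wild-type allele. The wild-type clones were 16F8, which was targeted with IDH1 R132C but is labelled as expressing no mutant allele, and the parental line. Each mutant line is 1 clone, so a difference between clones cannot be told apart from a difference due to the mutation. Sharing among several mutant clones does not settle this by itself, since 16F8 can share the same difference from the parental line. The labels call the 2 arrays of a clone biological replicates without naming separate cultures, so p-values within clones measure only the spread between these arrays.

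The TCA cycle oxidises acetyl groups: citrate synthase starts it, isocitrate dehydrogenases make 2-oxoglutarate, and the 2-oxoglutarate dehydrogenase complex carries that on to succinyl-CoA. IDH1 works in the cytosol and IDH2 in mitochondria, and the mutations studied here give both enzymes the ability to reduce 2-oxoglutarate to 2-hydroxyglutarate. Glutamine is a main source of 2-oxoglutarate in tumour cells: glutaminase releases glutamate, glutamate dehydrogenase and transaminases turn glutamate into 2-oxoglutarate, and carriers of the SLC25 family move the acids across the inner mitochondrial membrane.

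The deposited values are MAS5 signals, a linear intensity per probe set. Differences are given on the scale of log2(signal + 2.2), which understates changes of dim probe sets, with standard errors (SE) from limma and p-values adjusted by Benjamini-Hochberg over all 12541 genes; a gene is said to be called where the adjusted p was under 0.05. Comparisons of single clones with the parental line share the parental arrays, and those with 16F8 share the 16F8 arrays. The 2 arrays of a clone correlated at 0.987 to 0.995 and arrays of different clones at 0.95 to 0.991 over all genes. Of 12 colon epithelial markers, 7 lay at or above the array median in all 18 arrays, with summed signals of 11106 to 14021 in mutant arrays and 11011 to 16272 in wild-type arrays. Single markers moved: of the 8 tested, 7 passed the F test over clones described next. CDH1 (E-cadherin) gave 450 to 1364 in mutant arrays and 1004 to 1596 in wild-type arrays, and CLDN7, a tight junction protein, 228 to 1087 in mutant arrays and 851 to 1524 in wild-type arrays. The keratin KRT8 was higher than in the parental line in 2H1 and 3A4 (0.38 in each) and lower in 17H5 (−0.38). Of 10 fibroblast markers only COL1A1 lay at or above the array median in all 18 arrays. Summed signals of that list were 208 to 319 in mutant arrays and 249 to 377 in wild-type arrays. None of the 7 haematopoietic markers with a probe set lay at or above the median in all 18 arrays. Their sums were 33.2 to 161 in mutant arrays and 24.5 to 37.6 in wild-type arrays. PTPRC, the leukocyte common antigen, stayed at 0.2 to 4.6. LYZ (lysozyme) carried the rise, with 12.9 to 142 in mutant arrays and 8.2 to 19.4 in wild-type arrays, and was higher than in the parental line in 6 of 8 clones (all but 17H5 and 16F8) and than in 16F8 in 2C11, 2H1 and 3A4. Poly-A spike-in controls were 1.57-fold brighter in 1 array each of 2C11, 8G12, 16F8 and the parental line than in the 14 remaining arrays.

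By the brightest probe set of each gene, most TCA cycle enzymes among the members kept a steady level over the 9 clones. PCK2, GOT1, OGDHL and all of the measured carriers varied. In limma's F test over the clones, 11 of the 26 members (42.3%) were called, against 52.4% of all genes tested. The 11 were OGDHL and SUCLG2 of 9 TCA cycle enzymes, PCK2 of 4 enzymes of malate, pyruvate and oxaloacetate, GLUD1 of 2 enzymes of glutamine and glutamate, GOT1 of 5 transaminases, and all 6 carriers and transporters. PCK2 had the widest range, 2.43 log2 units (5.39-fold) between its lowest and highest clone, followed by OGDHL with 1.52 (2.88-fold), GOT1 with 1.13 (2.19-fold) and SLC25A10 with 1.02 (2.03-fold). Citrate synthase (CS) had the narrowest, 0.16 log2 units (1.12-fold). Against the parental line, 54 of the 208 pairs of a member and a clone were called (26%, against 25.5% of all such pairs of genes tested): 23 were lower (12.3% over all genes) and 31 higher (13.2%), and they fell on 13 members (60.3% of all genes were called in at least 1 clone). Against 16F8, 15 of 182 pairs were called (8.24%, against 8.97% over all genes), 8 lower (5.27% over all genes) and 7 higher (3.71%), on 8 members (38.1% of all genes). The members as a whole were therefore called about as often as other genes, and 11 of them were called against neither wild-type clone. With the poly-A control level as a covariate, 20 members passed the F test in place of 11 (76.9%, against 65.4% of all genes in that fit).

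**Figure D1:**
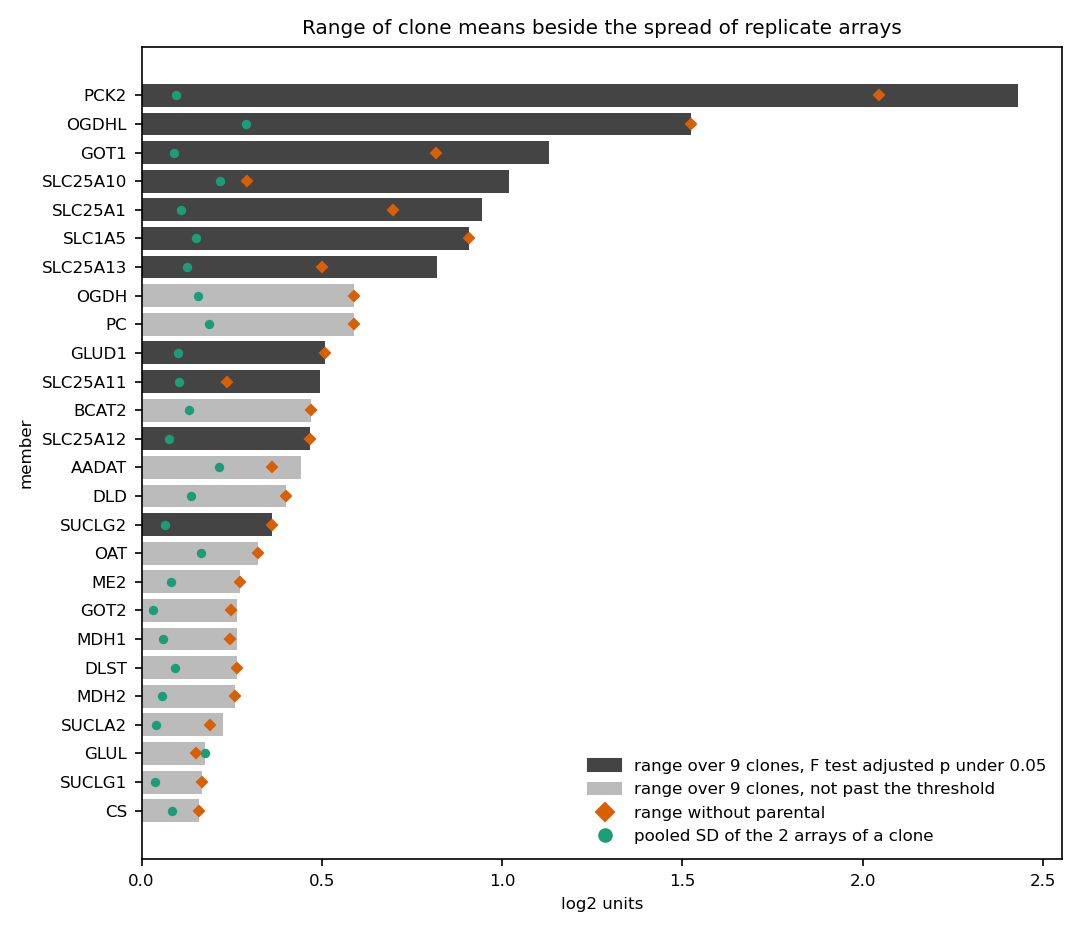
Bars give, for each of the 26 tested members, the range of the 9 clone means in log2 units, dark where limma's F test over clones had an adjusted p under 0.05. Diamonds give the range without the parental line and circles the pooled standard deviation of the 2 arrays of a clone. PCK2 reaches 2.43 and still 2.05 without the parental line, whereas SLC25A10 drops to 0.29 and SLC25A11 to 0.24 without it.

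PCK2, the mitochondrial phosphoenolpyruvate carboxykinase that turns oxaloacetate into phosphoenolpyruvate, was lower in all 8 other clones than in the parental line, and the IDH2 R140Q clones kept more of it than the rest. Its probe set gave 242 and 239.7 in 2C11, 269 and 238 in 2H1, and 266 and 267 in 3A4, all IDH1-mutant. In the IDH2-mutant clones it gave 491 and 417 in 8G12, 1027 and 974 in 17H5, 320.1 and 324 in 47C2, and 275 and 238 in 45G3. In the wild-type clones the signals were 251 and 252 in 16F8, and 1386 and 1233 in the parental line. Both parental arrays lay above the other 16, 17H5 came next, and 8G12 stood above the remaining 6 clones, which lay close together. Set against the parental line, the log2 difference was −2.43 for 2C11, −2.36 for 2H1, −2.29 for 3A4, −1.53 for 8G12, −0.39 for 17H5, −2.01 for 47C2, −2.34 for 45G3 and −2.37 for 16F8, each with SE 0.11. All 8 were called, with adjusted p from limma of 1.29e-10 to 0.0326, while 1.74% of all genes were lower in all 8. The 17H5 value was not past the threshold without 17H5 array 1 (adjusted p 0.0784), 17H5 array 2 (0.196) or parental array 1 (0.194). Against 16F8, PCK2 was higher in 17H5 by 1.98 log2 units (SE 0.11, 3.95-fold, adjusted p 7.71e-09) and in 8G12 by 0.84 (1.79-fold, adjusted p 0.000498), and it was called in none of the other 5 mutant clones.

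GOT1, the cytosolic aspartate transaminase of the malate-aspartate shuttle, which moves an amino group between glutamate and oxaloacetate, was also lower in all 8 clones than in the parental line, with 3A4 and 17H5 in between. Its signals were 1025 and 898 in 2C11, 1021 and 988 in 2H1, and 1687 and 1694 in 3A4. In the IDH2-mutant clones they were 1054 and 1167 in 8G12, 1523 and 1311 in 17H5, 1094 and 1066 in 47C2, and 928 and 1037 in 45G3. The wild-type clones had 1066 and 1147 in 16F8, and 2087 and 2114 in the parental line. No array of another clone reached the parental arrays, and 3A4 and 17H5 lay above all arrays of the other 6. Relative to the parental line GOT1 was lower by 0.92 to 1.13 log2 units in 2C11, 2H1, 8G12, 47C2, 45G3 and 16F8, with differences of −0.57 in 17H5 and −0.31 in 3A4 (SE 0.10, adjusted p 4.04e-07 to 0.0198). Against 16F8 it was higher in 3A4 by 0.61 (adjusted p 0.000222) and in 17H5 by 0.35 (adjusted p 0.0349). The 3A4 call against the parental line was lost without either 3A4 array or either parental array (adjusted p up to 0.0792), and the 17H5 call against 16F8 without either 16F8 array, 17H5 array 1 or either 47C2 array (up to 0.227). Of the other transaminases, its mitochondrial counterpart GOT2 ranged from 1721 to 2135 over the 18 arrays and was called only in 3A4 against the parental line (0.27, SE 0.08, adjusted p 0.0114), a call lost without 3A4 array 1 or parental array 1 (up to 0.0667).

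**Figure D2:**
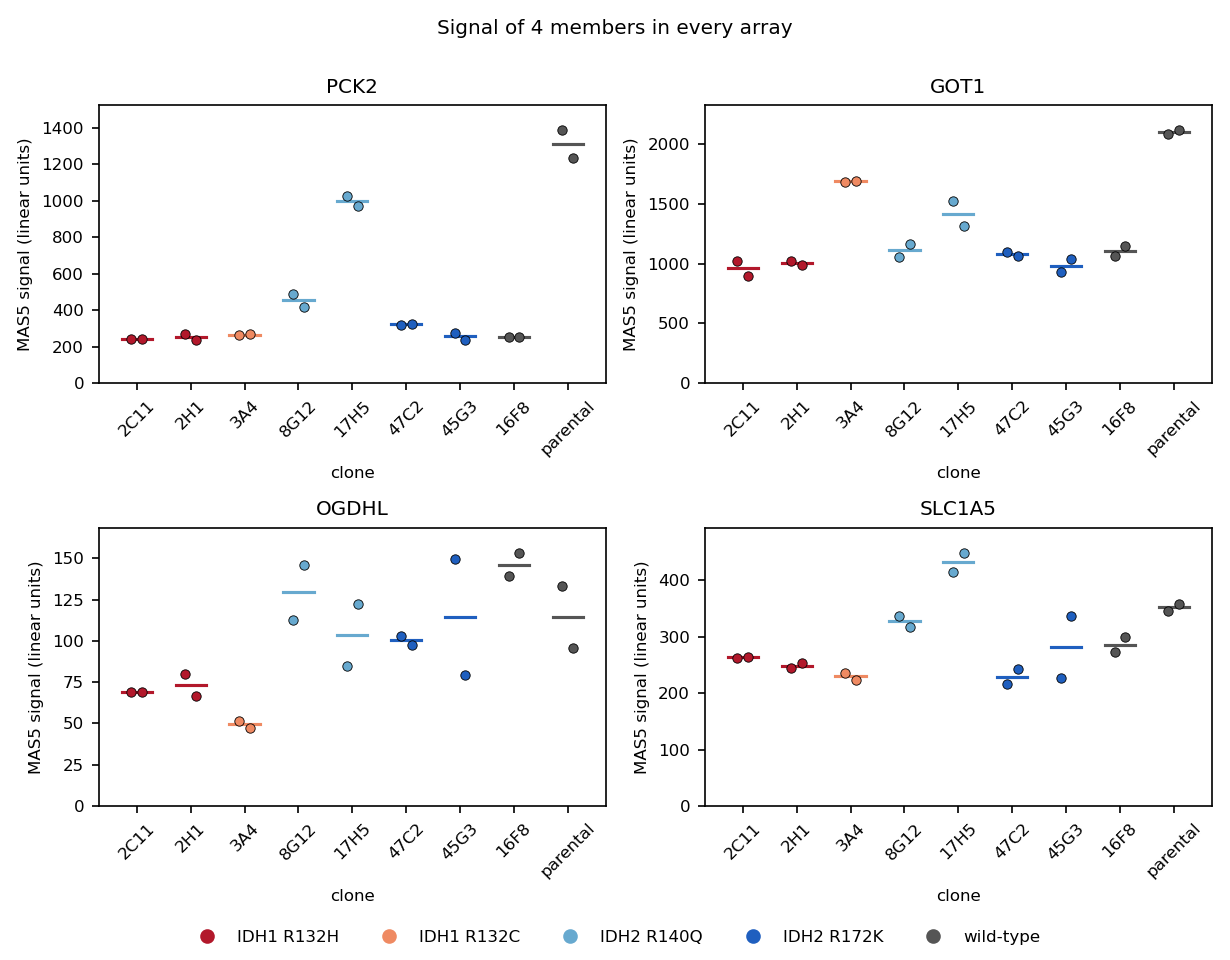
Each panel shows 1 member: points are the MAS5 signals (linear units) of the 2 arrays of a clone, lines their mean, and colours the genotype. PCK2 falls to 242 and 239.7 in 2C11 and GOT1 to 1025 and 898 there, against 1386 and 1233 and 2087 and 2114 in the parental line; OGDHL is lowest in the 3 IDH1-mutant clones.

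PCK2 moved with a wider group of genes. A list of 26 genes, made of ATF4, the transcription factor of the amino acid response, and its targets, holds neither PCK2 nor GOT1, and 24 of them were tested. The list was chosen with earlier results of these data known, so its counts are a description and no independent test. Lower than in the parental line were 21 of the 24 in each of 2C11, 2H1, 3A4, 47C2, 45G3 and 16F8, against 12.5%, 16.3%, 19.6%, 13.8%, 14.7% and 9.58% of all genes in the same order, 14 in 8G12 (7.06%) and 6 in 17H5 (4.97%); 4 were higher in 17H5 (6.88%). The list's median log2 difference was smallest in 17H5 (−0.16) and 8G12 (−0.52), the same 2 clones in which PCK2 was nearest to the parental line, and lay between −0.86 and −1.14 in the other 6. Against 16F8, 19 of the 24 were higher in 17H5 (4.43% of all genes), with a median of 0.78, and 7 were higher in 8G12 (0.526%), with a median of 0.33. ATF4's own transcript was called in no clone against either wild-type clone. These comparisons share their wild-type arrays, and because RNA of whole cultures was measured, fewer cells expressing a gene and less RNA per cell cannot be told apart.

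Promoter sequence is shown for PCK2 and GOT1, which were low together, and for OGDHL and SLC25A11, described next. It was taken from RefSeq (GRCh38.p14) as 300 bases per gene, 250 before and 50 after the annotated start, on the strand of the gene; 27 of the 29 members with a probe set matched, and OGDH and BCAT2 did not. Both strands were searched for TGATGNAA, bound by ATF4 with a C/EBP partner, CACGTG, the E-box of MYC and its relatives, and the motif of nuclear respiratory factor 1, and no matches of different motifs overlapped. The first was found in 3 of the 27 promoters (GOT1, BCAT1 and SLC25A11) and in 3.62% of 35116 promoters in the table, the E-box in 4 (OGDHL, ME3, BCAT1 and SLC25A13) and in 7.26%, and the last in 3 (SUCLA2, GLUD1 and SLC25A11) and in 5.78%. PCK2 lies at chr14:24094061-24094360 (+) with none of these letters, and GOT1 at chr10:99430575-99430874 (−) with the first motif, on the other strand, starting at −198 from the start. OGDHL lies at chr10:49762274-49762573 (−) with the E-box at −21. SLC25A11 lies at chr17:4939997-4940296 (−) with the first motif at −71 and the last at −17, both on the other strand. The matches are in capitals and are a description of these windows only.
PCK2: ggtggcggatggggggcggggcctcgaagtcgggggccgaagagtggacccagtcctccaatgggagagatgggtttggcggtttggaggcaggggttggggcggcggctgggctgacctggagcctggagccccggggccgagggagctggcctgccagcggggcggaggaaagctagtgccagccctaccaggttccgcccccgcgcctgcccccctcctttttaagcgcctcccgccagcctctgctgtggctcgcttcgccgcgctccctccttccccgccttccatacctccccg
GOT1: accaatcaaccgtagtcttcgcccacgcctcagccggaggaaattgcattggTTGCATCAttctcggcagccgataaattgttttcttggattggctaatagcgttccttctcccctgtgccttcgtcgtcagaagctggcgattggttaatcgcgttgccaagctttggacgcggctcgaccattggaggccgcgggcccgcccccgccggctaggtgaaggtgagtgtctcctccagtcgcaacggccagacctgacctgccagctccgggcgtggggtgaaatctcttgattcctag
OGDHL: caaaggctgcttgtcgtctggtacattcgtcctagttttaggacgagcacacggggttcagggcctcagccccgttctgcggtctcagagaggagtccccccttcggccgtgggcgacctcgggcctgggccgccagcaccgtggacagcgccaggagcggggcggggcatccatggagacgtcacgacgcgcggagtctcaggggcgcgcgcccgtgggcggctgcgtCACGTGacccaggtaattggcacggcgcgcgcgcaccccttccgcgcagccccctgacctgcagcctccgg
SLC25A11: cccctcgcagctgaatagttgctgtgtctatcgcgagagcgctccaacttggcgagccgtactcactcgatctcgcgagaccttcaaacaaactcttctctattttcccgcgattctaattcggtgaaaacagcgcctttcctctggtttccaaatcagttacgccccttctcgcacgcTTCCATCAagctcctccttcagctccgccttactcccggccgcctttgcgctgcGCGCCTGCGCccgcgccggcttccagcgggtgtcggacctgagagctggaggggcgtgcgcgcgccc

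The carriers of the inner mitochondrial membrane moved the other way: by the probe sets used, 4 of 5 were higher in most clones than in the parental line, and both parental arrays lay below all 16 others for SLC25A1, SLC25A10, SLC25A11 and SLC25A13, a pattern seen in 7.69% of all genes tested. Both parental arrays lay above all others for PCK2 and GOT1 only (7.17% of all genes).

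SLC25A10, the dicarboxylate carrier, which exchanges malate and succinate for phosphate, was higher in all 8 clones. It gave 94.7 and 135 in 2C11, 81.1 and 117 in 2H1, and 88.7 and 102 in 3A4. In the IDH2-mutant clones it gave 109.9 and 97.1 in 8G12, 94 and 90.8 in 17H5, 93.2 and 107 in 47C2, and 87.6 and 102 in 45G3. The wild-type clones had 101 and 128 in 16F8, and 60.7 and 49.7 in the parental line. The parental arrays stood alone at the bottom, and the other 8 clones overlapped. The log2 differences from the parental line ran from 0.73 in 17H5 to 1.02 in 16F8 (SE 0.20, adjusted p 0.0013 to 0.026), whereas 2.17% of all genes were higher in all 8 clones. Without parental array 2 the value was no longer past the threshold in 2H1, 3A4, 8G12, 17H5, 47C2 or 45G3 (adjusted p 0.056 to 0.16), and each of these 6 calls was also lost without at least 1 array of its own clone (up to 0.115). No mutant clone was called against 16F8.

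SLC25A1, the citrate carrier that exports citrate to the cytosol in exchange for malate, was higher in 7 of the 8 clones. Signals were 221 and 231 in 2C11, 209 and 181 in 2H1, and 163 and 189.8 in 3A4. Among IDH2-mutant clones, signals were 279.9 and 292 in 8G12, 239 and 206 in 17H5, 244 and 268 in 47C2, and 264 and 232 in 45G3. The wild-type clones had 278 and 263 in 16F8, and 154 and 141 in the parental line. Clone 3A4 lay nearest to the parental line, 2H1 next, and 8G12 and 16F8 highest. The log2 difference from the parental line was 0.95 in 8G12 (SE 0.13, adjusted p 7.28e-05) and 0.86 in 16F8 (adjusted p 0.000135), 0.39 to 0.79 in 2C11, 2H1, 17H5, 47C2 and 45G3 (adjusted p 0.000231 to 0.026), and 0.25 in 3A4, which did not pass (adjusted p 0.138). Against 16F8, SLC25A1 was lower in 3A4 (−0.61, adjusted p 0.00183) and in 2H1 (−0.47, adjusted p 0.0188), 2 of the 3 IDH1-mutant clones. The 2H1 calls were lost without parental array 2 or 2H1 array 1 (against the parental line, adjusted p up to 0.21) and without 2H1 array 2 or either 16F8 array (against 16F8, up to 0.167), and the 17H5 call without parental array 2 or 17H5 array 1 (up to 0.0719).

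SLC25A13 (citrin) and SLC25A12 (aralar) both exchange mitochondrial aspartate for cytosolic glutamate. SLC25A13 gave 271 and 245 in 2C11, 177 and 196 in 2H1, and 227 and 187 in 3A4. In the IDH2-mutant clones it gave 231 and 246 in 8G12, 184 and 179 in 17H5, 193 and 179 in 47C2, and 231 and 287 in 45G3. Wild-type signals were 256 and 229.7 in 16F8, and 154 and 137 in the parental line. The clones formed a high set of 2C11, 8G12, 45G3 and 16F8 with 3A4, 2H1, 17H5 and 47C2 lower, and all lay above the parental line. It was called higher than in the parental line in 2C11 (0.82), 3A4 (0.50), 8G12 (0.71), 45G3 (0.82) and 16F8 (0.73), each with SE 0.14 and adjusted p 0.000285 to 0.0086, and the other 3 differences, 0.32 to 0.36, did not pass (adjusted p 0.0574 to 0.141). All 3 of its probe sets were higher in all 8 clones, by 0.28 to 0.90 log2 units over all of them, and the 3A4 call was lost without 3A4 array 1 or parental array 2 (adjusted p up to 0.111). SLC25A12 ranged from 234 to 336 over the arrays and was called only in 3A4 against the parental line (0.32, SE 0.11, adjusted p 0.0292), which was lost without either 3A4 array or parental array 2 (up to 0.156). Its other, dimmer probe set lay above the parental line in all 8 clones, by 0.01 in 2H1 up to 0.60 in 16F8, and was called in 5 of the 15 comparisons with a wild-type clone, whereas the one used gave −0.15 to 0.32.

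SLC25A11 carries 2-oxoglutarate itself, in exchange for malate. The probe set used gave 1019 and 1113 in 2C11, 1031 and 1129 in 2H1, and 1073 and 954 in 3A4. IDH2-mutant clones had 1264 and 1104 in 8G12, 1131 and 1053 in 17H5, 1199.8 and 1186 in 47C2, and 945 and 1101 in 45G3. Wild-type clones had 1081 and 1225 in 16F8, and 853 and 839 in the parental line. The parental arrays were lowest, and the other clones overlapped with one another. It was called higher in 6 of 8 clones, by 0.33 to 0.50 log2 units (SE 0.11, adjusted p 0.00229 to 0.0331), with 0.26 in 3A4 and 0.27 in 45G3 short of the threshold (adjusted p 0.0674 and 0.0657). The calls in 2C11, 2H1, 8G12, 17H5 and 16F8 each depended on single arrays of the parental line or of the clone (adjusted p up to 0.181 without one). The second probe set of SLC25A11 differed by only 0.04 in 2C11, against 0.33 for the one used. With it the calls in 2C11, 2H1 and 17H5 were lost (adjusted p 0.861, 0.0888 and 0.261). It was also called lower in 3A4 than in 16F8 (−0.44, adjusted p 0.0344).

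**Figure D3:**
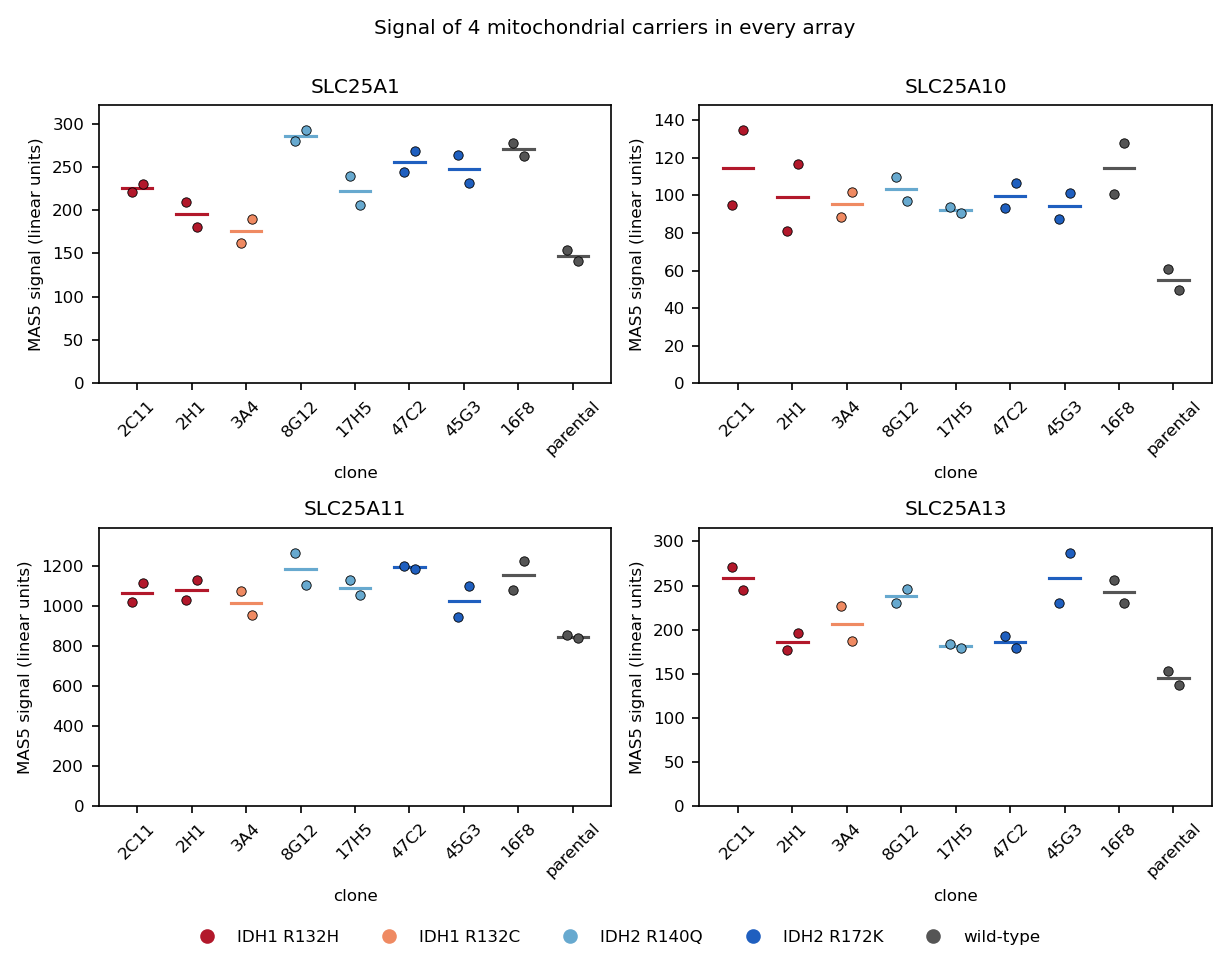
Points are the MAS5 signals (linear units) of the 2 arrays of each clone for 4 mitochondrial carriers, lines the clone means, and colours the genotype. In each panel both parental arrays lie below the other 16, for example 60.7 and 49.7 for SLC25A10 in the parental line, against 101 and 128 in 16F8.

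SLC1A5 (ASCT2), which brings glutamine into the cell across the plasma membrane, was highest in 17H5, and its 3 highest clone means were those of 17H5, the parental line and 8G12, the clones in which PCK2 was also highest. The IDH1-mutant clones had 263 and 265 in 2C11, 244 and 253 in 2H1, and 236 and 223 in 3A4. Among IDH2-mutant clones, signals were 338 and 317 in 8G12, 416 and 448 in 17H5, 216 and 242 in 47C2, and 227 and 337 in 45G3. For the wild-type clones the signals were 272 and 299.9 in 16F8, and 346 and 359 in the parental line. Both 17H5 arrays lay above all others, and the 2 arrays of 45G3 were far apart. SLC1A5 was lower than in the parental line in 2C11 (−0.42), 2H1 (−0.50), 3A4 (−0.61) and 47C2 (−0.62), each with SE 0.14 and adjusted p from limma of 0.00297 to 0.041. Against 16F8 it was called only in 17H5, higher by 0.59 (adjusted p 0.0161), and 17H5 did not pass against the parental line (0.29, adjusted p 0.202). The 3A4 call held without any 1 array; that in 2C11 was lost without 10 of the 18, one at a time (adjusted p up to 0.153), that in 2H1 without either 2H1 array or parental array 2 (up to 0.0786), that in 47C2 without 47C2 array 1 (0.0538), and that in 17H5 without 16F8 array 1 or 17H5 array 2 (up to 0.146).

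OGDHL, a relative of the E1 subunit of the 2-oxoglutarate dehydrogenase complex, had its lowest clone means in the 3 IDH1-mutant clones. OGDHL was not called in the comparison of that group with the wild-type clones on clone means, given below. Its single probe set gave 69.2 and 69.2 in 2C11, 79.7 and 66.9 in 2H1, and 51.3 and 47.5 in 3A4. In the IDH2-mutant clones it gave 113 and 146 in 8G12, 84.6 and 122 in 17H5, 103 and 97.7 in 47C2, and 149.7 and 79.5 in 45G3. In the wild-type clones it gave 139 and 153 in 16F8, and 133 and 95.8 in the parental line. The 3 IDH1-mutant clone means lay below the other 6, as they did for DLST among the members and for 4.35% of all genes, but the arrays overlapped slightly, since 1 array of 2H1 lay just above the lower array of 45G3. Against 16F8, OGDHL was lower by 1.05 log2 units in 2C11 (adjusted p 0.0288), 0.98 in 2H1 (0.011) and 1.52 in 3A4 (0.000199), each with SE 0.24, and none of the IDH2-mutant clones was called (−0.53 to −0.18). Against the parental line it was lower in 3A4 (−1.16, adjusted p 0.00137) and 2C11 (−0.69, 0.0465), with −0.61 in 2H1 short of the threshold (0.0667). Both 3A4 calls held without any 1 array; that in 2C11 against 16F8 was lost without either array of 2C11 or of 16F8 (adjusted p up to 0.177), that in 2C11 against the parental line without 11 arrays, one at a time (up to 0.288), and that in 2H1 without 16F8 array 2 or 2H1 array 2 (up to 0.0962). CDH1 and CLDN7 were also lower than in 16F8 in 2H1 (−1.10 and −1.94) and 3A4 (−1.18 and −1.43). The same held in the IDH2-mutant clones 47C2 (−0.97 and −0.90) and 45G3 (−0.68 and −0.72), where OGDHL was not called. In 2C11 CLDN7 was lower (−0.91) and CDH1 was not called. Not all epithelial markers fell: the keratins KRT8, KRT18 and KRT19 were called higher than in 16F8 in 2H1 (0.56, 0.45 and 0.39) and 3A4 (0.56, 0.52 and 0.44). None of these keratins was called against 16F8 in another mutant clone. LYZ was higher than in 16F8 in the 3 IDH1-mutant clones (1.87 to 3.15). The part of these markers in the OGDHL result was not tested. The signals are low, and OGDHL had the largest spread of replicate arrays among the members, a pooled SD of 0.29 log2 units.

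The other components of the 2-oxoglutarate dehydrogenase complex were steadier by their brightest probe sets, but OGDH and DLD had other probe sets that varied more. OGDH, the main E1 subunit, ranged from 88.5 to 149 with a median of 115, DLST, the E2 subunit, from 986 to 1217, and DLD, the E3 subunit shared with other dehydrogenases, from 1689 to 2587. None of the 3 was called in the F test (adjusted p 0.0635 for OGDH, 0.333 for DLST and 0.145 for DLD) or in any single clone, and the 3 probe sets of OGDH did not move alike, with −1.05 to 0.04 in 2H1 relative to the parental line. The second probe set of DLD lay above the parental line in all 8 clones, by 0.08 in 8G12 up to 0.74 in 3A4, and passed the F test (adjusted p 0.00671), where the brighter one gave −0.15 to 0.25. That second probe set was called in 4 comparisons with a wild-type clone. CS, which starts the cycle, ranged from 1943 to 2411 over the 18 arrays with an adjusted p of 0.65 in the F test. The succinyl-CoA synthetase subunits ranged from 1000.0 to 1249 (SUCLA2, the ADP-forming beta subunit), 1751 to 1991 (SUCLG1, the alpha subunit) and 641 to 870.2 (SUCLG2, the GTP-forming beta subunit). SUCLG2 passed the F test (adjusted p 0.0448) over a range of 0.36 log2 units, highest in 2C11 and lowest in 45G3, without a call against either wild-type clone; its probe set is of a type that may cross-hybridise, and its 4 probe sets gave −0.50 to 0.13 in 3A4 relative to the parental line. SUCLA2 was called in 2C11 against the parental line (0.23, SE 0.08, adjusted p 0.0472), a call lost in 15 of the 18 fits that left out 1 array (adjusted p up to 0.248).

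The clone means of MDH1, MDH2 and ME2 spanned only 0.26 to 0.27 log2 units. Those of PC spanned 0.59, with a pooled SD of replicate arrays of 0.19. MDH1, the cytosolic malate dehydrogenase, ranged from 1616 to 2076 and was higher than in the parental line in 2C11 (0.27, SE 0.09, adjusted p 0.029) and 2H1 (0.26, adjusted p 0.0281), calls lost without parental array 1, without parental array 2 or without at least 1 array of the clone itself (up to 0.218). ME2, a mitochondrial malic enzyme, ranged from 613 to 791, and PC, pyruvate carboxylase, was dim at 26.1 to 43.6; neither was called in any clone. MDH2, the mitochondrial malate dehydrogenase that closes the cycle, gave 2285 and 2480.4 in 2C11, 2202 and 2105 in 2H1, and 2323 and 2302 in 3A4. In the IDH2-mutant clones it gave 2401 and 2377 in 8G12, 2327 and 2166 in 17H5, 2249 and 2118 in 47C2, and 2209 and 2154 in 45G3. The wild-type clones had 2545 and 2611 in 16F8, and 2375 and 2621 in the parental line. All 7 mutant clone means lay below both wild-type means, as for 2.94% of all genes, although 1 array of 2C11 and both arrays of 8G12 lay above the lower parental array. The 2H1 difference from 16F8 was called (−0.26, SE 0.07, adjusted p 0.0423) and was lost without 10 of the 18 arrays, one at a time (up to 0.206).

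Among the enzymes of glutamine and glutamate, GLUD1, the glutamate dehydrogenase that makes 2-oxoglutarate, was lowest in 16F8 and highest in 3A4. It gave 1269 and 1447 in 2C11, 1506 and 1406 in 2H1, and 1604 and 1789 in 3A4. Among IDH2-mutant clones, signals were 1271 and 1353 in 8G12, 1448 and 1304 in 17H5, 1625 and 1464 in 47C2, and 1324 and 1227 in 45G3. The wild-type clones gave 1227 and 1151 in 16F8, and 1433 and 1649 in the parental line. The 2 wild-type clones lay far apart, and 5 of the 7 mutant clone means lay between them. GLUD1 was lower in 16F8 than in the parental line (−0.37, SE 0.10, adjusted p 0.0171), and higher than in 16F8 in 3A4 (0.51, adjusted p 0.00164) and 47C2 (0.37, adjusted p 0.0405). The first call was lost without 16F8 array 2 or parental array 2 (adjusted p up to 0.172) and that in 47C2 without 1 of 6 arrays (up to 0.325), and the closely similar GLUD2 was not measured on its own. GLUL, glutamine synthetase, ranged from 2020 to 2974 over the arrays, but its clone means spanned only 0.18 log2 units, no more than the pooled SD of its replicate arrays (0.18), and it was called nowhere with the probe set used, the brightest. A dimmer probe set of GLUL, the most variable, went another way: relative to the parental line it gave −0.10 in 3A4, 0.10 in 2H1, 0.54 in 2C11 and 0.56 in 16F8, passed the F test (adjusted p 0.00389) and was called in 5 of the 15 comparisons with a wild-type clone. Another of its probe sets gave −0.07 in 3A4 and 0.54 in 16F8.

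The remaining transaminases use 2-oxoglutarate as the acceptor of an amino group. OAT, ornithine aminotransferase, ranged from 1315 to 1876 and AADAT, which acts on aminoadipate and kynurenine, from 93.1 to 174, and neither was called. BCAT2, the mitochondrial branched-chain aminotransferase, ranged from 136 to 218 and was lower than in 16F8 in 2H1 (−0.45, SE 0.14, adjusted p 0.0412) and 3A4 (−0.41, adjusted p 0.041), but with the mean of its 2 probe sets the values were −0.22 and −0.15 (adjusted p 0.505 and 0.637). These calls were also lost without 1 of 5 arrays in 2H1 (adjusted p up to 0.272) and of 6 in 3A4 (up to 0.288). BCAT1, its cytosolic counterpart, gave 0.1 to 6.2, ME3, another mitochondrial malic enzyme, 0.6 to 9.2, and NNT, the transhydrogenase that makes NADPH in mitochondria, 0.2 to 3.6. These 3 lay below the array median in all 18 arrays and were not tested.

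**Figure D4:**
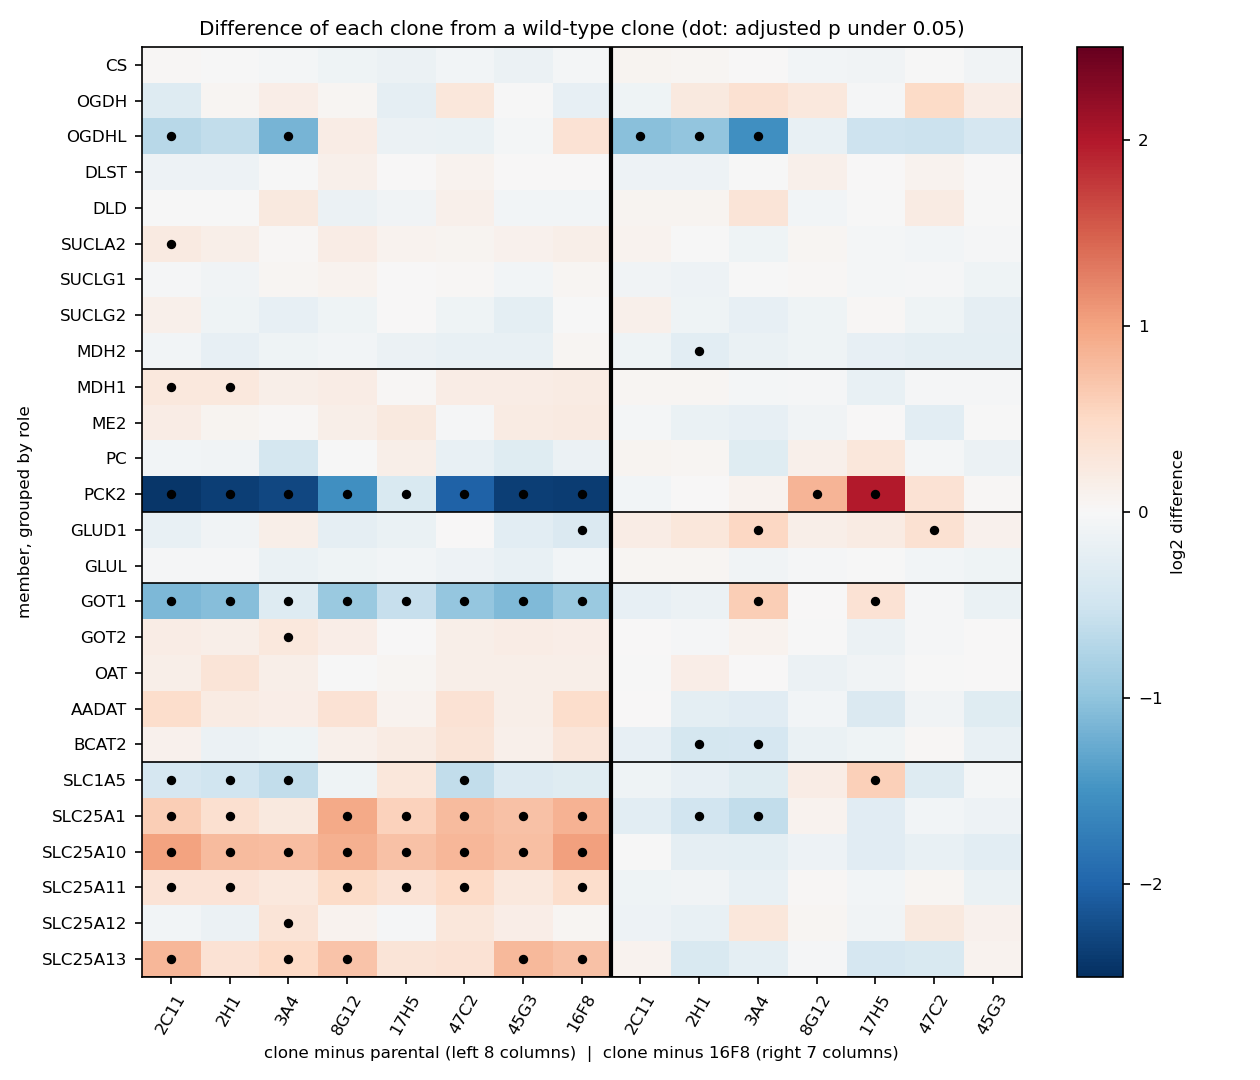
Colour gives the log2 difference of each clone (columns) from the parental line (left 8 columns) or from 16F8 (right 7 columns) for the 26 tested members (rows, grouped by role), and a dot marks an adjusted p under 0.05. PCK2 and GOT1 form blue rows against the parental line (down to −2.43), SLC25A1 and SLC25A10 red ones (up to 1.02), and most TCA cycle enzymes stay pale.

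Groups of clones were compared on the 9 clone means, so that n counts clones. In mutant against wild-type clones (n = 7 and 2) no member was called (0% of all genes; 864 of 12541 genes had an unadjusted p under 0.05). MDH2 was the only member among those 864: its mean signal was 2264 in mutant clones and 2538 in wild-type clones, a log2 difference of −0.17 (SE 0.07, 95% interval −0.31 to −0.02, limma's unadjusted p 0.0277, adjusted p 0.682), lower in 7 of 7 mutant clones. With its other probe set, the 1 of higher variance, the difference was −0.0047. For PCK2 the interval ran from −2.02 to 0.57 and for GOT1 from −0.94 to 0.14, whereas for CS it ran from −0.19 to 0.10. For PCK2 and GOT1 the parental line and 16F8 lay far apart. The mutant clones also differed among themselves. Without the parental line the clone means still ranged over 2.05 log2 units for PCK2 and 0.82 for GOT1.

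In IDH1-mutant against wild-type clones (n = 3 and 2), no member was called (0% of all genes; 1925 genes with an unadjusted p under 0.05). OGDHL came nearest, with a mean signal of 64.0 in IDH1-mutant clones and 130 in wild-type clones and a log2 difference of −1.004 (SE 0.20, 95% interval −1.46 to −0.55, limma's unadjusted p 0.000517, adjusted p 0.151), lower in 3 of 3 clones. It passed where all arrays were fitted with the clone as a random block (adjusted p 0.0373), a fit that called 3.05% of all genes. In IDH2-mutant against wild-type clones (n = 4 and 2) no member was called (0%; 633 genes with an unadjusted p under 0.05), and OGDHL differed by −0.23 (95% interval −0.66 to 0.20). MDH2 had the smallest p there, with a mean of 2250.2 in IDH2-mutant clones and 2538 in wild-type clones (−0.17, SE 0.07, adjusted p 0.892). The IDH2-mutant clones were then set against the IDH1-mutant clones directly, and again no member was called (0.00797% of all genes; 1652 with an unadjusted p under 0.05). OGDHL had a mean signal of 112 in IDH2-mutant clones and 64.0 in IDH1-mutant clones, a difference of 0.78 (SE 0.17, 95% interval 0.40 to 1.15, limma's unadjusted p 0.00093, adjusted p 0.17).

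By genotype, 1 member was called in the 4 comparisons with the wild-type clones. OGDHL was lower in IDH1 R132C, represented by the single clone 3A4, with a mean of 49.4 in R132C and 130 in wild-type clones (−1.34, SE 0.24, adjusted p 0.042); 1.14% of all genes were called in this comparison. The fit assumes that the lone R132C clone varies like the others. In IDH1 R132H (0.0319% of all genes called) OGDHL had a mean of 71.3 against 130 in wild-type clones (−0.83, SE 0.19, adjusted p 0.184), in IDH2 R140Q (0%) −0.17 (adjusted p 0.999) and in IDH2 R172K (0%) −0.29 (adjusted p 0.591). The R132C call was lost without clone 8G12, 17H5, 47C2 or 45G3, one at a time (adjusted p 0.0751 to 0.0776). Without 16F8 the parental line was the only wild-type clone, so that n was 1 there, the spread came from the genotypes with a pair of clones, and R132C against wild-type set 1 clone against 1. In that fit 6.67% of all genes were called in R132H, 7.04% in R132C, 0.128% in R140Q and 5.75% in R172K, and among the members 7 calls were made: PCK2 in R132H (−2.40, adjusted p 0.0122), R132C (−2.29, 0.0246) and R172K (−2.18, 0.0201), GOT1 in R132H (−1.10, 0.00949) and R172K (−1.03, 0.0173), SLC25A10 in R132H (0.91, 0.037) and OGDHL in R132C (−1.16, 0.0324). 16F8 itself was called against the parental line in 7 of the 26 members, where 22% of all genes were called: PCK2, GOT1 and GLUD1 were lower in it, and SLC25A1, SLC25A10, SLC25A11 and SLC25A13 higher.

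**Figure D5:**
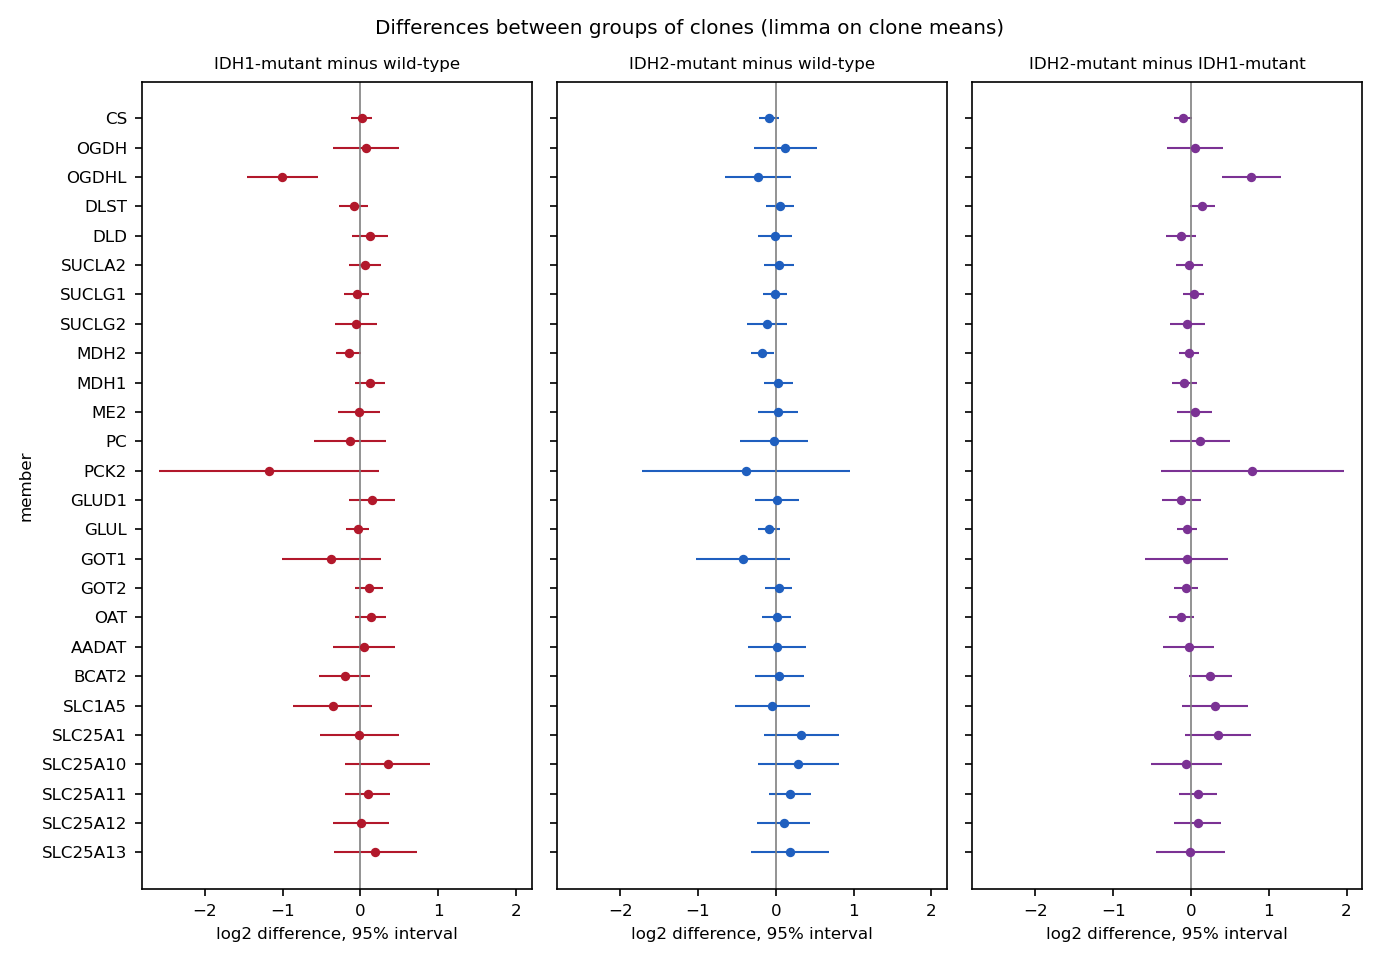
Points are log2 differences between groups of clones for the 26 tested members, fitted with limma on the 9 clone means, and lines their 95% intervals. OGDHL stands at −1.004 in IDH1-mutant minus wild-type clones and at 0.78 in IDH2-mutant minus IDH1-mutant clones, PCK2 has the widest intervals, and CS stays near 0.

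Of 32 other genes of the same pathways, 27 were tested, and more of them were lower than in the parental line: 9 lower and 5 higher in 2C11, 12 and 4 in 2H1, 12 and 4 in 3A4, 9 and 5 in 47C2, 11 and 6 in 45G3, 9 and 6 in 16F8, with 6 lower and 3 higher for 8G12 and 2 lower and 1 higher for 17H5. Over all genes the shares lower were those given for the ATF4 list, and the shares higher were 13.4%, 14.7%, 17.6%, 14.2%, 15.1%, 12.4%, 11.4% and 6.88% in the same order. The list of other genes was likewise chosen with earlier results of these data known. ASNS (asparagine synthetase, which takes its amino group from glutamine) and GFPT1 (which starts hexosamine synthesis from glutamine) were lower in all 8 clones, and PSAT1 (phosphoserine aminotransferase, which makes 2-oxoglutarate from glutamate) in 7, all but 17H5. ASNS had mean signals of 895 for 2C11, 774 for 2H1, 1165 for 3A4, 1379 for 8G12, 2036 for 17H5, 1194 for 47C2, 982 for 45G3 and 1039 for 16F8, against 2979.9 in the parental line, so that 17H5 again lay nearest to the parental line. ASNS, PSAT1 and SLC7A11 also stand in the list of ATF4 targets. ACO1, the cytosolic aconitase, was higher than in the parental line in 7 clones (by 0.29 to 0.64, not called in 17H5), and MPC2, a subunit of the mitochondrial pyruvate carrier, in 6 (0.33 to 0.68). SDHA, a TCA cycle enzyme outside the members, was likewise called higher in 7 clones. SLC1A3, a glutamate and aspartate transporter of the plasma membrane, split the clones: it was lower than in the parental line in 2H1 (143 against 259, −0.85) and 3A4 (164 against 259, −0.66) and higher in the other 6 (0.99 to 1.81). Against 16F8, however, SLC1A3 was lower in 6 mutant clones and higher in none. SLC7A11 was lower than in the parental line in 7 clones but higher than in 16F8 in 6. For these 2 genes the direction thus depended on the wild-type clone used.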

How the data were processed

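RNA of 9 HCT116 clones was measured on 18 one-colour arrays (2 per clone) of 54675 probe sets. The deposited intensities are MAS5 signals made by the authors, per the submitters' processing notes; its version is not given in the sources used here. Array medians were 12.3 to 15.6. Arrays give no counts, and 2 arrays per clone limit the precision.

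Signals were taken as log2(signal + 2.2), the offset being the 25th percentile of all values, and not normalized further. A probe set was kept where both arrays of at least 1 clone reached the array median, and a gene was represented by its kept probe set of highest mean among those annotated to 1 symbol (41091 probe sets; 1801 carried several and 11721 none). Clones were compared with limma 3.58.1 in R 4.3.3 (lmFit, eBayes with a variance trend, Benjamini-Hochberg, threshold 0.05) on 18 arrays with 9 residual degrees of freedom, and groups of clones on 9 clone means (7 residual degrees of freedom for mutant against wild-type, 6 with IDH1 and IDH2 apart, 4 for 5 genotypes). The fits were also run on simulated data. For groups of clones, the simulated differences between clones were scaled down and the planted changes enlarged. That run therefore does not show how the group comparisons perform here. Figures were drawn with matplotlib 3.10.9.

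The members and gene lists were chosen with earlier results of these data known. All members are named; values in every array are given for members called in the F test and in at least 2 comparisons with a wild-type clone, and for the smallest p of each comparison of groups. The same replicate numbers did not pair the arrays: deviations of replicate 1 from the clone mean correlated between −0.35 and 0.38 over 36 pairs of clones. Alternatives covered the offset, filter, normalization, choice of probe set, variance model, poly-A controls, replicate block, clone as a random block, wild-type clone used, and leaving out each array or clone.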

Additional observations from a re-analysis of the deposited data

Results flagged for a closer look

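MDH1, the cytosolic malate dehydrogenase, had 1 IDH2-mutant clone far from the other 3: the gap of 17H5 to the nearest of the others was 0.917 of the range of the 4 clones, above Dixon's 95% critical value for 4 values. Its mean signal was 1678 ± 15.2 in 17H5, while 8G12 had 1894 ± 128, 47C2 had 1873 ± 15.9 and 45G3 had 1873 ± 40.4, against 1920.5 ± 36.7 in 16F8 and 1656 ± 56.4 in the parental line (SD, n = 2 arrays each). Clone 17H5 lay at the level of the parental line, as it lay nearest to it for PCK2. Of 52 groups examined in this way 1 stood out, where chance gives 2.6.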

How the results depend on the processing

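Of 69 single calls of a member in a clone, 34 passed under all 29 alternatives and 54 under the 11 that left out no array; no call changed direction. The number of members that differed among the 9 clones, 11, was 20 with the poly-A control level as a covariate (65.4% of all genes), and the cause was not tested. Leaving out single arrays gave 8 to 13 members in the F test, 36 to 61 calls against the parental line (54 with all arrays) and 7 to 19 against 16F8 (15 with all arrays: 7 without 16F8 array 1, 9 without 16F8 array 2 and 9 without 2H1 array 2). Without a filter, which tests more genes, there were 9 calls against 16F8. The replicate number as a block gave 11, 52 and 14 in these tests. It lost 3 single calls, OGDHL in 2C11 (adjusted p 0.0509) and SUCLA2 in 2C11 (0.0542) against the parental line and MDH2 in 2H1 against 16F8 (0.0529), but the numbers did not pair the arrays.

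No member was called in mutant against wild-type, IDH2-mutant against wild-type or IDH2-mutant against IDH1-mutant clones under any alternative. In IDH1-mutant against wild-type clones the count was 0, but 1 (OGDHL) with all arrays and the clone as a random block (3.05% of all genes), and 1 with the replicate block added to that (adjusted p 0.046; 2.6% of all genes). Over the 4 genotypes the count was 1, but 0 with an offset of 50, 0 without a filter and 0 without a variance trend (OGDHL adjusted p 0.0562, 0.067 and 0.0533), and 7 with the parental line as the only wild-type clone; leaving out single clones gave 0 to 7. PCK2 in 17H5 against the parental line was −0.35 (adjusted p 0.0787) after quantile normalization. SLC25A11 in 2C11 against the parental line was 0.04 (adjusted p 0.861) with its other probe set and 0.19 (0.174) with the mean of both. Low signals limit what could be measured for ME3, BCAT1 and NNT, and 2 wild-type clones that differ widely limit all comparisons of mutant with wild-type clones.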
